A study of Homo sapiens with 9 samples.

Results

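The cytosolic ribosomal protein genes were followed in RNA sequencing of Huh7 cells, an established human hepatocellular carcinoma line, after siRNA knockdown of a Hippo pathway kinase. The set was given as 60 Entrez gene numbers, 42 of proteins of the large subunit (RPL genes) and 18 of the small subunit (RPS genes), and all 60 were found among the 20575 genes listed. The 9 samples formed 3 groups of 3: siControl received a control siRNA, siLATS1 a pool of siRNAs against LATS1, and siLATS2 a pool against LATS2. All cells were transfected with the same lipid reagent and RNA was taken 48 h later, so the groups differ, as labelled, only in the siRNA. The study's methods, unlike the labels, describe the sequenced cells as also treated with sorafenib, a kinase inhibitor used against liver cancer; whether any sample received it is not settled here, so each value may be that of untreated or of treated cells. Each knockdown rests on 1 cell line and 1 siRNA pool, and the replicates are described as biological triplicates, without saying whether they were transfected on separate days, so p-values below measure the spread between these samples. The comparisons ask whether loss of LATS1 or LATS2 changed the ribosomal protein transcripts, and whether the 2 knockdowns differed from each other.

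Each cytosolic ribosome is built from a small subunit, which reads the mRNA, and a large subunit, which joins the amino acids. Their proteins are made in nearly equal numbers, from short, abundant mRNAs that most often begin with a C followed by a run of C and T bases, the 5′ terminal oligopyrimidine (TOP) motif. Through this motif, the growth kinase mTOR and the RNA-binding protein LARP1 set how much of these mRNAs is translated. In hepatocytes, which secrete most plasma proteins, ribosomes make up a large part of the cell.

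The values are CPM, the reads of a gene relative to all counted reads of the sample on a fixed total, divided by a scaling factor of each sample (TMM), and are called scaled CPM. Depth was 23547579 to 32193229 counted reads per sample. LATS1 itself, the target of the first pool, was at 27.1, 20.1 and 15.6 scaled CPM in the siLATS1 samples, under each siControl sample (110, 55.2 and 62.9) and each siLATS2 sample (54.7, 78.6 and 51.2). Its log2 fold change against siControl was -1.78 ± 0.31 (SE; limma, unadjusted p = 0.000399, adjusted p = 0.126), so its fall did not pass the adjusted threshold. LATS2 was not analysed here. The 10 hepatocyte markers summed to between 12432 and 23151 scaled CPM per sample, with ALB at 2962 to 6210, whereas 5 fibroblast markers summed to 135 to 275, 5 leukocyte markers to 19.6 to 27.6 and 5 endothelial markers to 0.723 to 2.77. One library stood apart: over all tested genes, log2 levels of siControl replicate 1 correlated with siControl replicates 2 and 3 at r = 0.859 and 0.866, against 0.959 to 0.995 for the other pairs within groups, and it had 4369 genes without a read against 3369 to 3804. The limma medians and counts of the ribosomal protein genes against siControl are therefore given with and without it. Most values of single genes, of other lists and of edgeR and DESeq2 use all siControl samples only.

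The sequences show what the genes share and where they part. First come the starts of 6 genes that hold the motif, with the run from the first transcribed C onwards in capitals: the 3 of them that were lowest in siControl replicate 1 against the other siControl samples, and the 3 that were highest. RefSeq starts on GRCh38.p14 were matched for 47 of the 60 genes; each line holds 15 bases before the start and 15 from it.
RPL36, chr19:5690280-5690309, plus strand: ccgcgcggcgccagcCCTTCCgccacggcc
RPL35, chr9:124861943-124861972, minus strand: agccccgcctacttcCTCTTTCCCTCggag
RPS9, chr19:54200843-54200872, plus strand: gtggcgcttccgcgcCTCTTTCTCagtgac
RPL35A, chr3:197950175-197950204, plus strand: cggcggggcctcgtcCTTCTCTTaccgcca
RPS3A, chr4:151099613-151099642, plus strand: cgactcccacttccgCCCTTTTggctctct
RPL22, chr1:6199581-6199610, minus strand: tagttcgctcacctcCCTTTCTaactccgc

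A gene was scored as TOP when, at any of its listed starts, the first transcribed base was C and at least 4 bases that are each C or T followed it. Only the transcribed strand was read. Where a gene had several listed starts, the longest run was taken, also for the lines above. This held for 34 of the 47 matched genes (72.3%), with runs of 6 to 16 bases, against 6.98% of 10235 other tested genes with a listed start. It was found in 16 of 17 matched translation factor genes and in 6 of 69 mitochondrial ribosomal protein genes. Of the 47 genes, 13, RPS15 and RPL9 among them, did not hold it at any listed start. A missing match says only that these letters are not at a listed start. The 6 printed starts were chosen for holding the motif and say nothing of how it relates to the levels.

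The coding sequences differed in base composition. Over the 60 genes, GC content of the coding sequence ran from 42.7% in RPS3A to 63.0% in RPS15, with a median of 52.0% against 51.5% over 11912 tested genes with a coding sequence. The next lines give the first 81 bases of the longest coding exon, with G and C in capitals, for the 3 genes that were lowest in siControl replicate 1 and the 3 that were highest (GRCh37, read 5′ to 3′ along the gene).
RPL36, exon 3 of 4, chr19:5691330-5691410, plus strand: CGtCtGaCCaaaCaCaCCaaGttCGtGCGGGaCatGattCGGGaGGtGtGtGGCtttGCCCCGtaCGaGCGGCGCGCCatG
RPS15, exon 3 of 4, chr19:1440018-1440098, plus strand: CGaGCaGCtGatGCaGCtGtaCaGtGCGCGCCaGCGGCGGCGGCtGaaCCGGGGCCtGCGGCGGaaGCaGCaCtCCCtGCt
RPL35, exon 4 of 4, chr9:127620266-127620346, minus strand: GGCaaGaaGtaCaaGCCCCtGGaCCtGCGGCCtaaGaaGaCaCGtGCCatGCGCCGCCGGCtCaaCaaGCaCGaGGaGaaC
RPS3A, exon 4 of 6, chr4:152024023-152024103, plus strand: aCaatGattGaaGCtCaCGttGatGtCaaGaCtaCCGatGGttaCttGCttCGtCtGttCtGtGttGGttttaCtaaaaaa
RPL22, exon 4 of 4, chr1:6246796-6246876, minus strand: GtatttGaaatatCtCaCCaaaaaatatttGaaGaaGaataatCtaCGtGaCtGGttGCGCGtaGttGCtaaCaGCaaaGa
RPL9, exon 5 of 8, chr4:39458078-39458158, minus strand: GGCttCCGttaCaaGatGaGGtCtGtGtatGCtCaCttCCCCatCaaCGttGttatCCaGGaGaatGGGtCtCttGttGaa

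In these stretches 61.7%, 71.6% and 61.7% of the bases of RPL36, RPS15 and RPL35 were G or C, against 38.3%, 34.6% and 46.9% in RPS3A, RPL22 and RPL9.

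Together the 60 genes took 2.34%, 4.14% and 3.62% of all counted reads in the siControl samples (mean 3.36% ± 0.929, SD, n = 3). They took 2.84%, 3.46% and 3.43% in siLATS1 (3.24% ± 0.347, n = 3) and 3.69%, 3.28% and 3.65% in siLATS2 (3.54% ± 0.224, n = 3). The lowest and the highest share of all 9 samples were both siControl samples, and the 3 groups overlapped. The spread of single genes followed the same order: the median coefficient of variation over the 60 genes was 34.4% within siControl, 15.3% within siLATS1 and 8.47% within siLATS2. Between siControl replicates 2 and 3 alone it was 12.4%. In such bulk samples, fewer cells that express a gene and less of its RNA per cell cannot be told apart.

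Although their proteins are made in nearly equal numbers, the counted transcripts of the 60 genes spanned nearly 2 orders of magnitude per coding length. RPL37 was highest at 3140 ± 631 scaled CPM per coding kilobase (mean and SD over the 9 samples), followed by RPS12 (2602 ± 425), RPL26 (2269 ± 339) and RPL37A (2259 ± 459). Neighbours among these 4 lay within 1 SD of each other. Among the lowest were RPL7 (33.3 ± 8.21), RPL9 (76.9 ± 26.7), RPS3A (171 ± 38.0) and RPL29 (180 ± 85.9), and the last 2 of these did not differ beyond their spread. Reads were counted over whole exons, untranslated parts included, but divided by coding length, which raises genes whose coding part is a small share. The authors counted only reads with a single place in the genome, and many ribosomal protein genes have processed pseudogenes. Of all 81-base windows of the coding sequence, 95.0% in RPL7, 83.7% in RPL9, 90.4% in RPS3A and 55.9% in RPL29 occurred exactly elsewhere in GRCh37. The share was 0% in RPL37 and RPL37A, 23.7% in RPS12 and 40% in RPL26. Across the 60 genes the log2 level per coding kilobase and this share were negatively related (Pearson r = -0.56, Spearman rho = -0.38, genes of the same libraries and not independent). Levels of the 17 genes with over 50% of their windows copied are therefore uncertain, and levels were not compared between genes beyond this order.

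**Figure D1:**
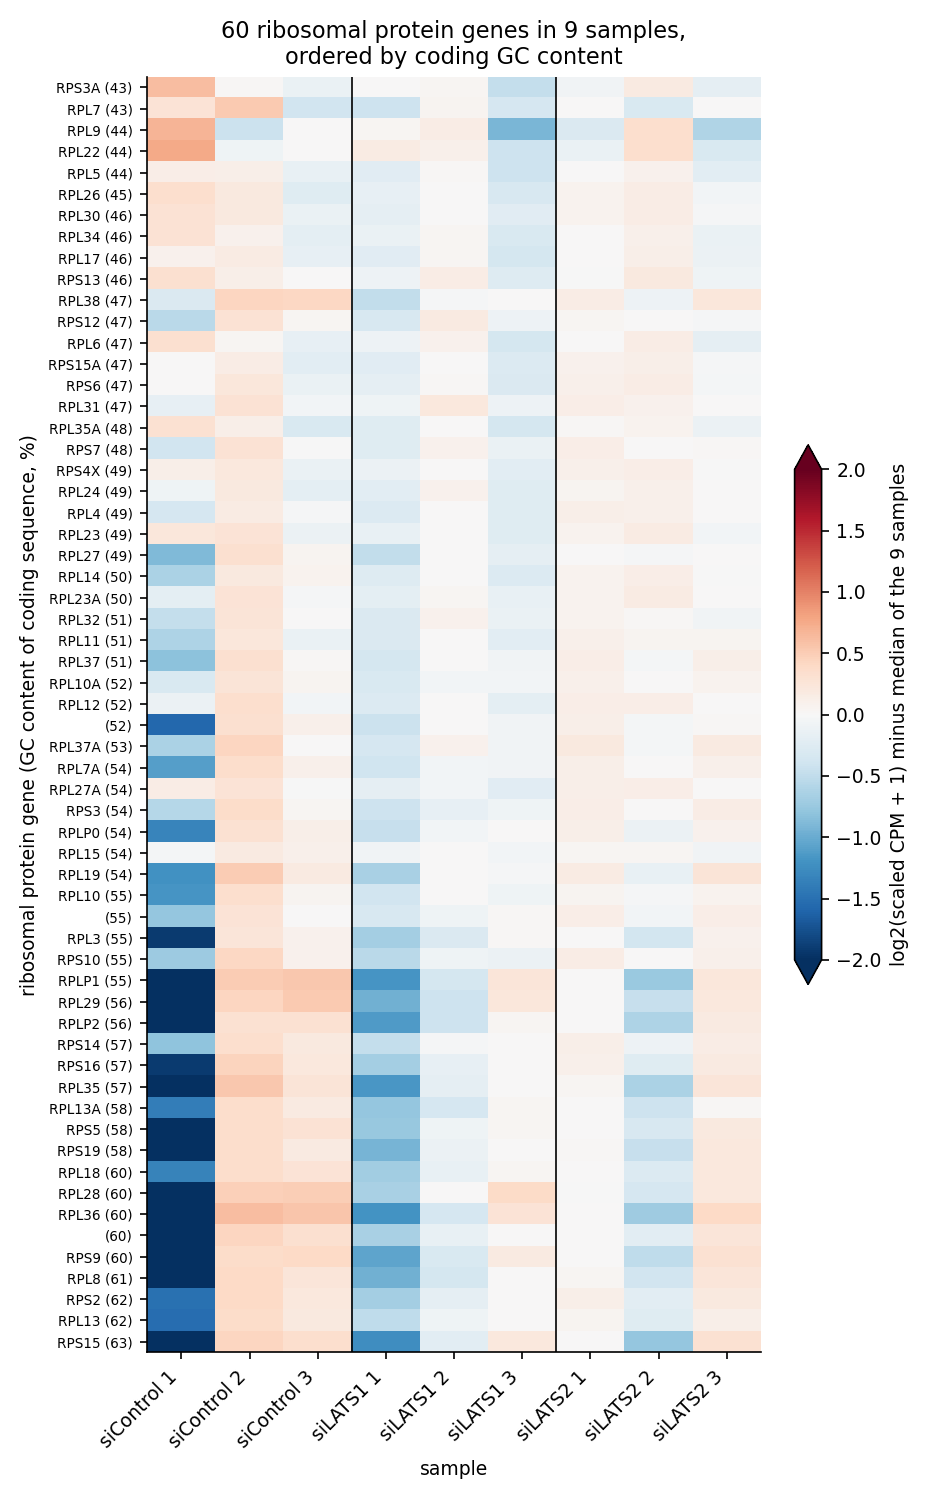
Each row is 1 of the 60 genes, ordered from the lowest coding GC content (top, 42.7%) to the highest (bottom, 63.0%), and each column 1 sample; colour gives log2(scaled CPM + 1) minus the gene's median over the 9 samples, and values beyond 2 in either direction share the end colours; 3 rows carry their GC content without a name. siControl replicate 1 runs from above the median at the top to far under it at the bottom, and siLATS1 replicate 1 and siLATS2 replicate 2 show the same direction with smaller values.

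siControl replicate 1 departed from the other siControl samples in many ribosomal protein genes, and in both directions. RPL36 (Entrez gene 25873), a large-subunit protein, was at 6.02 scaled CPM there, from 137 reads, against 242 and 233 in replicates 2 and 3, a 39.5-fold difference. RPS15 (Entrez gene 6209), which reaches the decoding centre of the small subunit, was at 8.56 against 324 and 303 (36.6-fold). RPL35 (Entrez gene 11224), which lies near the exit of the peptide tunnel, was at 16.4 against 430 and 355 (24.0-fold). RPS9 (18.0-fold), RPL29 (15.3-fold) and RPLP1 (12.2-fold) were the others over 10-fold lower. RPLP1 and RPLP2 are the acidic proteins of the ribosomal stalk that recruits elongation factors, and RPLP2 was 9.49-fold lower (61.8 against 587 and 587 scaled CPM). RPLP0, the protein that anchors both, was 2.89-fold lower (521 against 1609 and 1405).

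Other ribosomal protein genes were higher in that library. RPL9 (Entrez gene 6133) was at 73.7 scaled CPM against 33.5 and 45.6, RPL22 (6146) at 363 against 201 and 213, and RPS3A (6189) at 205 against 135 and 121. These were the 3 genes at least 1.5 times higher. RPL35A and RPL6 followed, with log2 differences of 0.40 and 0.38 from the mean of replicates 2 and 3. RPS6, the small-subunit protein phosphorylated by S6 kinase downstream of mTOR, was nearly level at 742 against 870 and 675. RPL5 and RPL11, which with 5S rRNA bind MDM2 when ribosome assembly fails, stood at 943 against 940 and 778, and at 666 against 1191 and 932. RPL11 was thus under both and RPL5 level with the higher.

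Of the 60 genes, 44 were lower in siControl replicate 1 than the mean of replicates 2 and 3, 25 of them over 2-fold, and 16 were higher. The median log2 difference was -0.78 (range -5.09 to 0.90), against 0.12 over all 12901 tested genes. By this difference 14 of the 60 (23.3%) lay among the lowest 10.0% of all tested genes. siControl replicate 1 held the lowest value of the 9 samples in 39 of the 60 genes and the highest in 10. Over all tested genes this was so in 39.6% and 41.8%, so that this library was at one extreme in most genes, with the low side more frequent than the high side in the 60. Large- and small-subunit genes had medians of -0.69 (30 of 42 lower) and -0.94 (14 of 18 lower). These are differences of single samples, with no test.

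**Figure D2:**
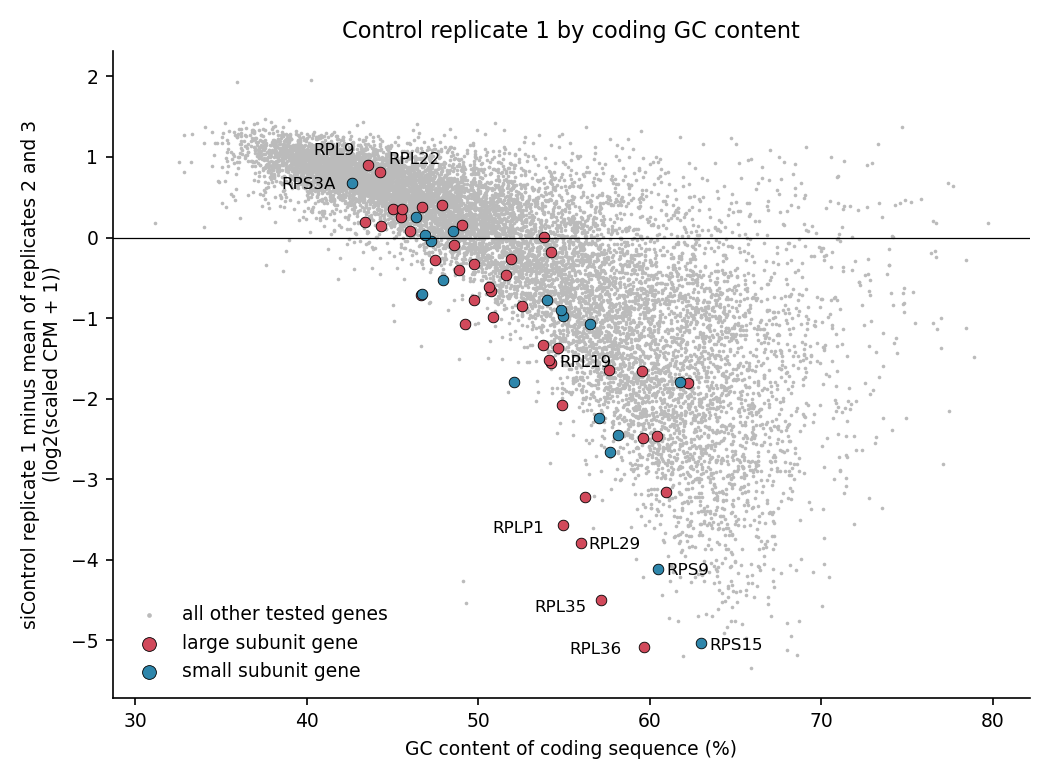
The horizontal axis gives GC content of the coding sequence (%) and the vertical axis the log2 difference of siControl replicate 1 from the mean of siControl replicates 2 and 3; large-subunit genes are red, small-subunit genes blue and the other tested genes grey. The ribosomal protein genes fall from RPL9 (0.90) at 43.6% GC to RPL36 (-5.09) at 59.7% GC, mostly along the lower side of the grey points.

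The direction of the difference followed base composition. Across the 60 genes, the log2 difference and coding GC content had a Spearman rho of -0.90 (Pearson r = -0.82), and across 11912 tested genes a rho of -0.84 (r = -0.78), points that share their libraries. For GC content of the whole transcript, the rho was -0.84 (r = -0.83) over the 60 genes. Over the same 11912 genes it was stronger than for coding GC content, with a rho of -0.92 (r = -0.88). Coding length showed no such relation (rho = 0.03 over the 60 genes), although they are short, with a median coding length of 495 bases against 1422 over all tested genes. In 4 sets of 15 genes by GC content, the median log2 difference was 0.25 at 42.7 to 47.3% GC, -0.41 at 47.5 to 51.9%, -1.37 at 52.1 to 56.2% and -2.46 at 56.5 to 63.0%. In the last set each of the 15 genes was lower, from -1.07 for RPS14 to -5.09 for RPL36.

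Within a range of GC content, the ribosomal protein genes lay lower than the rest. At 55 to 60% GC their median log2 difference was -2.49 (11 genes), against -0.92 for all 2049 tested genes of that range, -0.89 for 247 others with a coding length of at most 600 bases and -1.05 for 393 others with a mean of at least 100 scaled CPM. At 45 to 50% GC the medians were -0.01 (20 genes) and 0.42 (2291 genes). At 50 to 55% GC they were -0.94 (18 genes) and -0.12 (1949 genes). When the trend over GC content was removed from each sample, the median of the 60 genes moved from -0.78 to -0.65, their SD fell from 1.47 to 0.957, and 55 of 60 lay below 0. RPL36 was then at -3.73, RPL35 at -3.56 and RPS15 at -3.37, whereas RPL13, at 62.2% GC, went from -1.80 to -0.19. With the trend over transcript GC content removed instead, the median of the 60 genes was -0.73, their SD 0.894, and 55 of 60 lay below 0. Why this library differs was not tested.

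The same axis ran, less strongly, through some of the other samples. The summed level of the 15 genes with the highest GC content, divided by that of the 15 with the lowest, was 0.214 in siControl replicate 1, 0.597 in siLATS1 replicate 1, 0.657 in siLATS2 replicate 2 and 0.766 in siLATS1 replicate 2. In the other 5 samples it was between 0.911 and 1.17, so each group held at least 1 sample on the low side. The GC-rich sums themselves were 1852 scaled CPM in siControl replicate 1 against 9269 and 8457 in replicates 2 and 3. They were 4096, 6227 and 7316 in siLATS1 and 7273, 5568 and 8107 in siLATS2. The GC-poor sums differed much less, from 6399 in siLATS1 replicate 3 to 8748 in siControl replicate 2. Per sample, the deviation of the 60 genes from their mean over all samples correlated with GC content at a rho of -0.89, -0.79 and -0.71 in siControl replicate 1, siLATS1 replicate 1 and siLATS2 replicate 2. The rho was 0.09 in siLATS1 replicate 2 and 0.83 to 0.90 in the other 5 samples. The mean of each gene includes siControl replicate 1, whose fall with GC content pushes the rho of the other samples up. The positive values therefore cannot tell whether those 5 samples have a trend of their own, which was not tested.

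**Figure D3:**
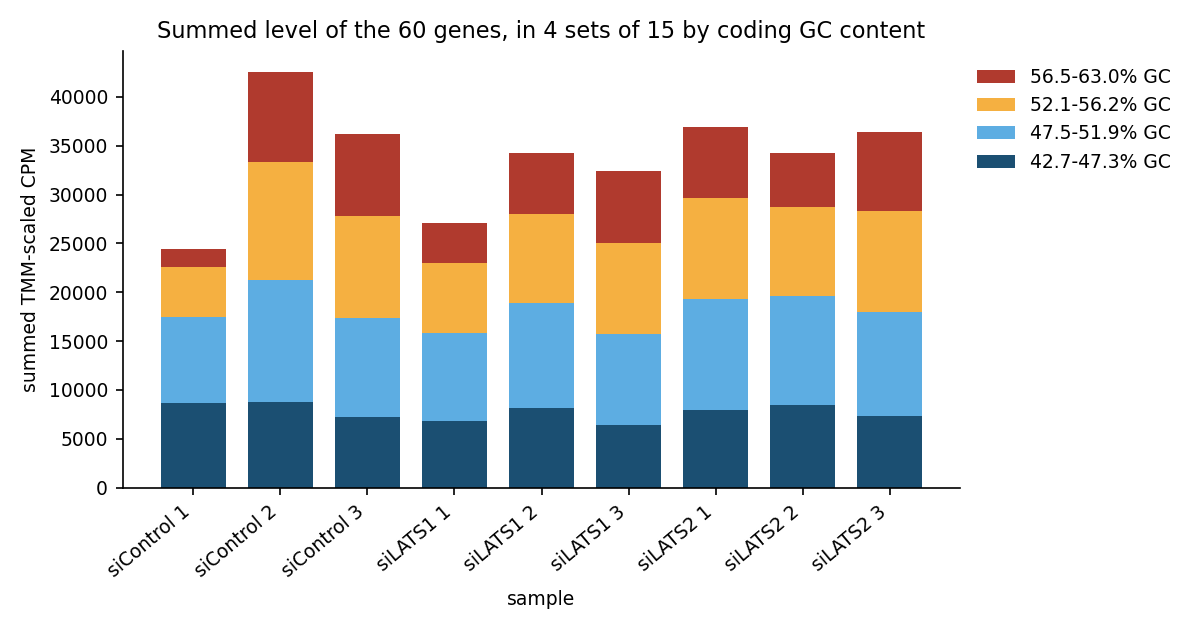
Bars give the summed scaled CPM of the 60 genes in each of the 9 samples, from 0, split into 4 sets of 15 genes by coding GC content. The dark blue GC-poor set keeps a similar height throughout, and the red GC-rich set shrinks to 1852 scaled CPM in siControl replicate 1 and to 4096 in siLATS1 replicate 1.

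With all 9 samples, knockdown of LATS1 moved no ribosomal protein gene past the threshold. By limma with Benjamini-Hochberg adjustment, 0 of the 60 were called at adjusted p under 0.05 and an absolute log2 fold change of at least 0.58 (all genes: 13 of 12901, 0.101%), and 0 at unadjusted p with the same fold (all genes: 376, 2.91%). At unadjusted p under 0.05 with no fold limit, 1 of 60 was called (all genes: 5.78%). On the recovered reads, edgeR called 0 of the 60 at adjusted p (all genes: 0.0465%) and 0 at unadjusted p with the fold limit (3.97%), with 1 at unadjusted p under 0.05 (5.77%). DESeq2 likewise called 0 (all genes: 1.29%), 0 (4.08%) and 1 (6.92%). The median log2 fold change of the 60 genes was -0.05, with 37 below 0, against a median of 0.02 and 47.2% below 0 over all genes. In edgeR the median was -0.15 and 59 of 60 lay below 0 (all genes: 53.2%), and in DESeq2 it was -0.17, also with 59 (all genes: 56%).

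That 1 gene was RPL27A, a large-subunit protein at 53.8% GC whose siControl replicate 1 value lay between the other siControl values. It stood at 943, 1037 and 846 scaled CPM in siControl, at 751, 819 and 729 in siLATS1 and at 926, 941 and 854 in siLATS2. Each siLATS1 sample was under each sample of the other groups. The log2 fold change against siControl was -0.29 ± 0.12 (SE, limma, unadjusted p = 0.041, adjusted p = 0.81), and the exact two-sided permutation test gave 0.1, the smallest p that 3 against 3 samples allow. Over all genes 2.71% had siLATS1 values under all siControl values. The next 4 genes by p were RPL30 (-0.25 ± 0.14), RPL23 (-0.25 ± 0.14), RPL5 (-0.24 ± 0.16) and RPL38 (-0.35 ± 0.23), each at an adjusted p of 0.98 by limma. The fold change was positively related to coding GC content (rho = 0.81 over the 60 genes), from a median of -0.24 in the GC-poor set to 0.20 in the GC-rich set.

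RPL19 (Entrez gene 6143), the reference gene to which the study's quantitative PCR was normalised, was at 227, 753 and 594 scaled CPM in siControl, 336, 527 and 518 in siLATS1 and 592, 474 and 628 in siLATS2. Its lowest and highest samples were both siControl, and its log2 fold change for siLATS1 was -0.05 ± 0.41 (adjusted p = 0.99, limma) and, without siControl replicate 1, -0.57 ± 0.22 (adjusted p = 0.36). Among other genes often used as references, RPLP0 stood at 948, 1249 and 1300 in siLATS1, against the siControl values above and 1418, 1205 and 1388 in siLATS2, with a log2 fold change of 0.13 ± 0.38 (adjusted p = 0.98). RPS15 had the highest fold change and one of the widest errors, with 101, 208 and 280 in siLATS1 and 241, 141 and 298 in siLATS2 (log2 fold change 0.89 ± 1.23 for siLATS1, adjusted p = 0.98, limma). The siLATS1 and siLATS2 values of RPS15 all lay between siControl replicate 1 and the other siControl samples. Its rise in limma thus rests on siControl replicate 1. In edgeR the highest log2 fold change of any of the 60 genes for siLATS1 was 0.03.

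**Figure D4:**
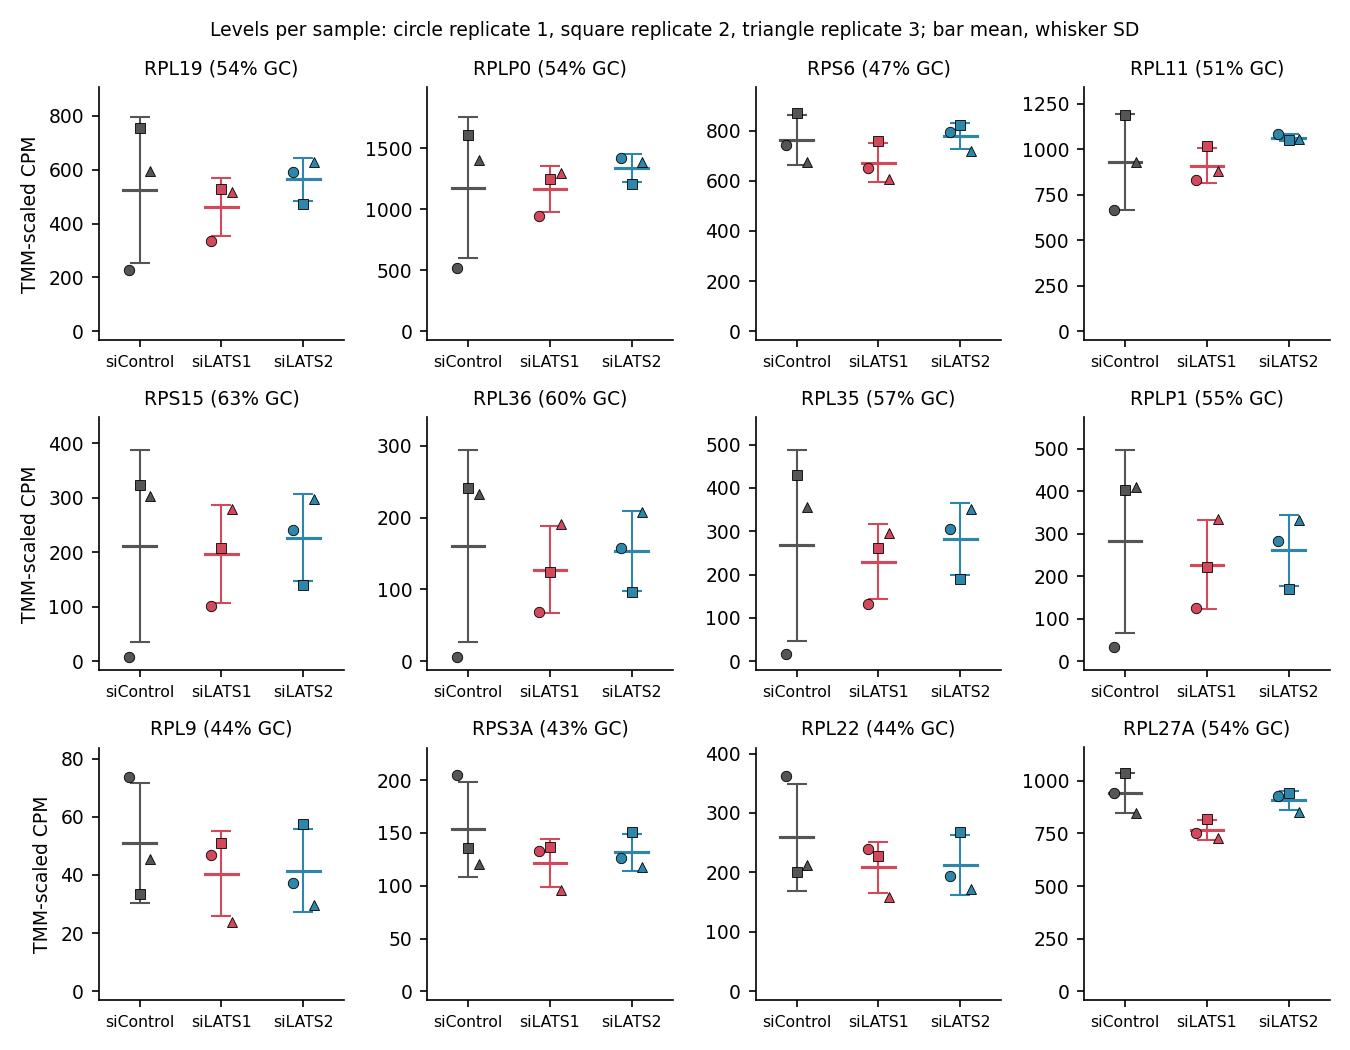
Scaled CPM of 12 ribosomal protein genes in each sample, with circle, square and triangle for replicates 1, 2 and 3, a bar for the group mean and a whisker for the SD (n = 3). In the GC-rich genes RPS15, RPL36, RPL35 and RPLP1 the siControl circle lies near 0, in RPL9, RPS3A and RPL22 it is the highest point, and in RPL27A the 3 siLATS1 points lie under the other 6.

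Without siControl replicate 1 the siLATS1 values moved to the other side of 0 in many genes. All 60 genes then had a log2 fold change below 0 (all genes: 50.1%), with a median of -0.31 (all genes: -0.00). At unadjusted p under 0.05 and a fold change of at most -0.58, 13 of 60 were called (21.7%, against 2.7% of all genes), and at unadjusted p with no fold limit 26 (43.3%, against 5.67% of all genes lower). At the adjusted threshold 0 of 60 were called (all genes: 0.279%), with a lowest adjusted p of 0.24. Other libraries moved the median across 0 as well: it was 0.14 without siControl replicate 2, with 21 genes below 0 (all genes: 47.6%), 0.01 without siControl replicate 3 and 0.06 without siLATS1 replicate 1.

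With siControl replicates 2 and 3 alone, all 3 siLATS1 samples lay under both siControl samples in 33 of the 60 genes (55%, against 13.7% of all genes) and over both in 0 (all genes: 15.3%). The library left out had the lowest share of reads in the 60 genes (2.34%), and siControl replicate 2 the highest (4.14%). This count therefore depends on which siControl samples are kept. RPL38, a short large-subunit protein at 46.7% GC, had the lowest p: 264 and 262 scaled CPM in siControl replicates 2 and 3 against 140, 193 and 196 in siLATS1, a log2 fold change of -0.59 ± 0.17 (unadjusted p = 0.0082, adjusted p = 0.24, limma). RPS10 was at -0.50 ± 0.17 (adjusted p = 0.31). The sizes again ran with GC content, now in the other direction (rho = -0.84), from a median of -0.14 in the GC-poor set, where RPL22 was at -0.01 ± 0.23, to -0.62 in the GC-rich set, where RPL36 was at -1.01 ± 0.42.

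Removing the GC trend as well left all 60 genes below 0 (all genes: 51.4%), with a median of -0.31 (all genes: -0.01). At unadjusted p under 0.05, 38 were called, all lower (63.3%, against 11% of all genes lower), 6 of them with the fold limit (all genes lower: 1.46%). The lowest adjusted p was 0.062, for RPL8, the large-subunit protein next to the peptidyl transferase centre, and 0 passed (all genes: 2.12%). Leaving the library out together with the GC trend was chosen after the data were seen, and both knockdowns share the 2 siControl samples that are left. Why the values depend on this library was not tested.

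**Figure D5:**
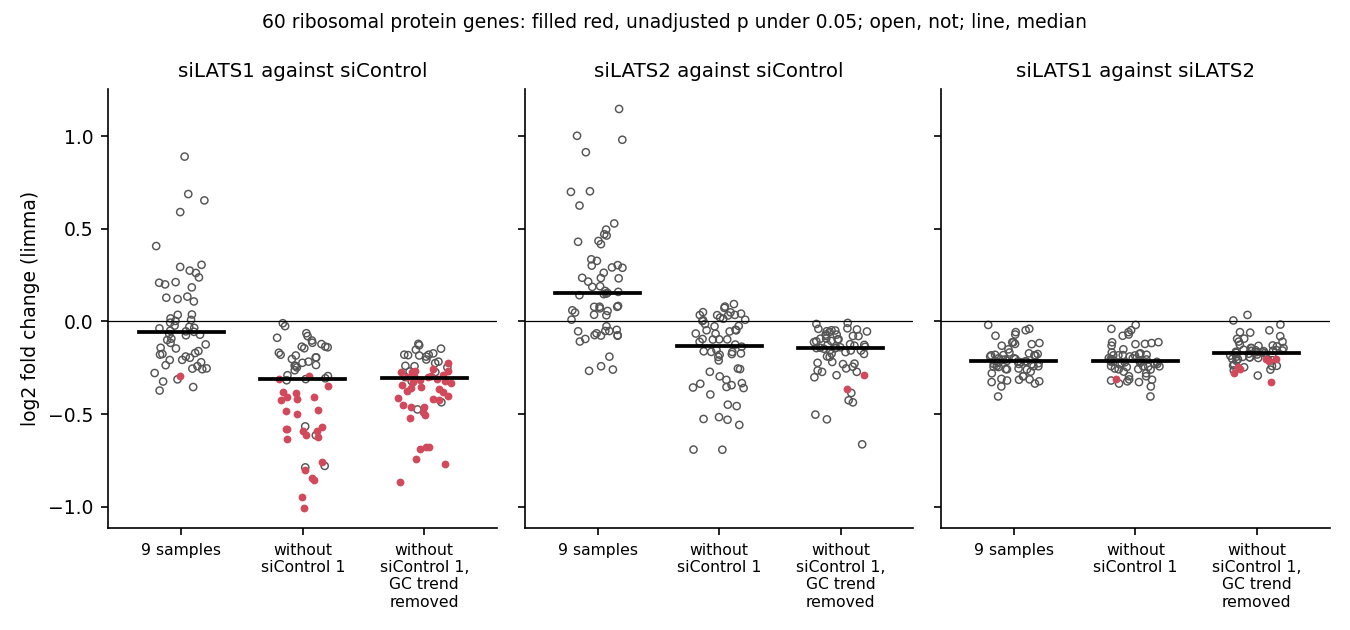
Log2 fold changes of the 60 genes (points; filled red at unadjusted p under 0.05, limma) with their median (line), for the 3 comparisons, in all 9 samples, without siControl replicate 1, and without it after the GC trend was removed. The siLATS1 median goes from -0.05 to -0.31 and -0.31, the siLATS2 median from 0.15 to -0.13 and -0.14, and siLATS1 against siLATS2 stays at -0.22, -0.22 and -0.17.

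Knockdown of LATS2 gave no call among the ribosomal protein genes either. By limma 0 of 60 passed at adjusted p (all genes: 0 of 12901, 0%, with 110 at unadjusted p under 0.05) and 0 at unadjusted p with the fold limit (all genes: 35, 0.271%). With no fold limit, 0 of 60 were at unadjusted p under 0.05 (all genes: 0.853%), and edgeR and DESeq2 also gave 0 (all genes: 0.876% and 1.05%). The median log2 fold change was 0.15 (all genes: 0.03), with 16 genes below 0 (all genes: 45.1%). In 0 of the 60 did each siLATS2 sample lie under each siControl sample (all genes: 0.643%). The lowest p among the 60 was that of RPL11, at 1086, 1053 and 1054 scaled CPM in siLATS2, values that lie between the siControl samples (log2 fold change 0.23 ± 0.20, unadjusted p = 0.28, adjusted p = 0.95). RPS15 had the highest value, 1.15 ± 1.23 in limma, whereas in edgeR the highest of any of the 60 genes was 0.20.

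Without siControl replicate 1, the siLATS2 median was -0.13 and 45 of 60 genes lay below 0 (all genes: 42.6%), with 0 at unadjusted p under 0.05 (all genes: 2.22%). All 3 siLATS2 samples lay under siControl replicates 2 and 3 in 21 genes (35%, against 10.4% of all genes) and over both in 0 (all genes: 13%). This count too depends on which siControl samples are kept. With the GC trend also removed, the median was -0.14 and all 60 lay below 0 (all genes: 50.3%), 2 of them at unadjusted p under 0.05 (all genes lower: 1.48%).

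The fold changes between the 2 knockdowns compare no siControl sample, but the SE and p-values of this paragraph take the spread from all 9 samples unless stated. Here all 60 ribosomal protein genes had a log2 fold change below 0, lower in siLATS1 than in siLATS2, against 57.7% of all genes. The differences were small: the median was -0.22 (all genes: -0.03) and the range -0.41 (RPL8) to -0.02 (RPL22). By limma 0 of 60 were called at adjusted p (all genes: 0, with 505 at unadjusted p under 0.05), at unadjusted p with the fold limit (all genes: 240, 1.86%) or at unadjusted p alone (all genes: 3.91%). By edgeR 0 of 60 passed at adjusted p (all genes: 0%) or at unadjusted p under 0.05 (3.95%). By DESeq2 0 passed at adjusted p (all genes: 0.775%) and 1 was at unadjusted p under 0.05 (all genes: 4.97%). With all 9 samples the lowest p was again that of RPL27A, with -0.24 ± 0.12 (unadjusted p = 0.080, adjusted p = 1, limma), followed by RPS15A (-0.23 ± 0.14), RPL12 (-0.24 ± 0.15), RPL4 (-0.24 ± 0.15) and RPS6 (-0.22 ± 0.14). When limma was given only the 6 samples compared, 1 of 60 was at unadjusted p under 0.05 (all genes: 774 of 12901). Without siControl replicate 1 and with the GC trend removed, 7 of 60 were (all genes: 1854 of 11912), all lower in siLATS1. At the adjusted threshold 0 of 60 passed in both (all genes: 0 and 115).

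In 7 genes each siLATS1 sample lay under each siLATS2 sample (11.7%, against 6.63% of all genes), and in 0 over each (all genes: 5.8%). These were RPL7A, RPL10A, RPL11, RPL12, RPL27A, RPS3 and RPS10, each with an exact permutation p of 0.1, the smallest possible. RPS3, which lines the mRNA entry of the small subunit and also acts in DNA repair, stood at 489, 583 and 615 scaled CPM in siLATS1 and at 711, 650 and 722 in siLATS2 (log2 fold change -0.31 ± 0.23). In RPS6 the groups overlapped, with 652, 757 and 608 against 796, 821 and 719. The count of 60 below 0 became 55 with the CPM values as deposited (all genes: 42.1%), where the median was -0.14 and that of all genes 0.04. It became 58 with the GC trend removed (all genes: 52%), and 51, with a median of -0.10, without siLATS1 replicate 1 (all genes: 55.3%), the siLATS1 sample with the lowest share of reads in the 60 genes.

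The shared direction extended to other lists of translation and energy genes. In siLATS1 against siLATS2, the 19 other cytosolic ribosomal protein genes that were tested all lay below 0, as did 75 of 77 mitochondrial ribosomal protein genes (median -0.20), 69 of 74 oxidative phosphorylation genes (-0.15), 29 of 31 ribosome biogenesis genes (-0.25) and 21 of 24 translation factor genes (-0.15). Of 13 genes that control TOP mRNAs, such as MTOR and LARP1, 11 lay below 0 (median -0.12). Over all genes 57.7% lay below 0 (median -0.03). These list counts were taken with TMM and all 9 samples only. At unadjusted p with the fold limit, limma called 2.91%, 0.271% and 1.86% of all genes for siLATS1, siLATS2 and siLATS1 against siLATS2. In each of these lists 0 genes were called by either threshold in any comparison, and likewise among 4 fibroblast and 2 leukocyte markers that were tested, 7 paralogs of ribosomal protein genes and 14 host genes of small nucleolar RNAs. Apart from LATS1, the only lists with calls, by unadjusted p, were hepatocyte markers (APOB, log2 fold change -0.70, SERPINA1, 0.72, and TTR, 0.77, for siLATS1, and APOA2, 0.68, for siLATS2) and endothelial markers (PECAM1, -0.72, under 3 scaled CPM in each sample). APOA2 and SERPINA1 were also called in siLATS1 against siLATS2, at -1.15 and 0.63.

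In siControl replicate 1 the lists had different medians. The 19 other ribosomal protein genes had a median log2 difference of -0.18 from replicates 2 and 3 (12 lower), mitochondrial ribosomal protein genes -0.22 (44 of 77 lower), oxidative phosphorylation genes -0.19 (45 of 74 lower), ribosome biogenesis genes 0.20 and translation factor genes 0.17, against -0.78 in the 60 genes. At a given GC content the other ribosomal protein genes lay close to the 60: at 50 to 55% GC their median was -0.89 (8 genes) against -0.94, the 1 gene at 55 to 60% was at -2.69 against -2.49, and the 1 gene above 60% was at -3.85 against -2.81. Within 55 to 60% GC the mitochondrial ribosomal protein genes were at -0.95 (11 genes) and oxidative phosphorylation genes at -1.23 (13 genes), against -2.49 for the 60. Above 60% GC they were at -2.66 (17 genes) and -3.70 (13 genes), against -2.81 (6 genes).

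Over the 9 samples, the mean z-score of the 60 genes was lowest in siControl replicate 1 (-1.09) and siLATS1 replicate 1 (-0.80) and highest in siControl replicate 2 (1.05). Among the 5 genes outside the 60 with the most similar log2 pattern were ATP5MC1 (Pearson r = 0.98, n = 9 samples), a subunit of the mitochondrial ATP synthase, POLR3K (0.98), a subunit of RNA polymerase III, and PSMD2 (0.98), a subunit of the proteasome. They were picked as the highest of all tested genes, so r is a description only.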

How the data were processed

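RNA of 9 Huh7 samples was sequenced as single 81-base reads. The labels name a stranded total RNA kit with rRNA depletion and the study's methods poly-A selection, and which was used is not settled here, nor whether the cells received sorafenib, which only the methods name. The authors aligned reads to hg19 (GRCh37) with STAR, kept unique hits, counted RefSeq exons with QuasR and deposited CPM values. All values were whole multiples of 1 read (100% within 0.01), so reads could be recovered. RefSeq named 20474 of 20575 Entrez numbers, and 1 row per table had neither identifier nor value. CPM were scaled by TMM (edgeR 4.0.16), and log2(value + 1) was tested with limma 3.58.1 (trend, 3 groups, two-sided, Benjamini-Hochberg over 12901 genes kept because 3 samples or more reached 1 CPM). Fold changes of low genes are understated on this scale. A call needed p under 0.05, adjusted or unadjusted as stated, and an absolute log2 fold change of at least 0.58. Alternatives were count tests on recovered reads (edgeR quasi-likelihood, DESeq2 1.42.0), other scalings and filters, a pseudocount of 0.1, a replicate block, leaving out each sample, and removal of the GC trend (lowess, span 0.3). Single genes had an exact permutation test (scipy 1.17.1). Coding GC content and length are those of annotated GRCh37 transcripts. The fit was tested on simulated data with the same spread in all samples and no library that stood apart. That test therefore does not cover a library like siControl replicate 1. Some genes that the rule names are not reported here. The genes, the lists and the rule for named genes (lowest p or largest change, fixed roles, extremes of level and of siControl replicate 1, most similar pattern) were chosen with earlier results of these data known; RPL7A, RPL8, RPL10A, RPL13 and RPS10 are named outside the rule, after their values were seen. Depth was 23547579 to 32193229 counted reads, and each value of the 60 genes rests on at least 137.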

Additional observations from a re-analysis of the deposited data

How the results depend on the processing

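In each of the 22 alternatives, 3 of them added after the data were seen, 0 of the 60 genes passed the adjusted threshold in any comparison; of 2310 values of named genes of the set, 183 had another sign than in all 9 samples. Leaving out 1 sample at a time, the 60 genes gave 0 to 13 calls at unadjusted p with the fold limit for siLATS1 (13 without siControl replicate 1, 1 without siControl replicate 3) and 0 in the other comparisons. Their median log2 fold change ran from -0.31 to 0.14 for siLATS1, from -0.13 to 0.36 for siLATS2 and from -0.29 to -0.10 for siLATS1 against siLATS2. Their share of reads ran from 2.98 to 3.88% in siControl, 3.13 to 3.44% in siLATS1 and 3.46 to 3.67% in siLATS2. Over all genes, calls ran from 0 to 36 (adjusted) and 232 to 703 (unadjusted) for siLATS1, 0 to 0 and 11 to 85 for siLATS2, and 0 to 19 and 192 to 308 for siLATS1 against siLATS2. Adjusted calls over all genes for siLATS1 (13) became 8 where each sample had to reach 10 reads, 0 with only the 6 samples compared, 77 with the GC trend and 167 with the transcript GC trend removed, 253 with the GC trend removed and without siControl replicate 1, 6 by edgeR and 166 by DESeq2. With the GC trend removed and without siControl replicate 1, unadjusted calls were 607 for siLATS1, 6 of them among the 60 genes, and 61 for siLATS2. Unadjusted calls for siLATS2 (35) were 72 with a pseudocount of 0.1, 74 by edgeR and 70 by DESeq2. For siLATS1 against siLATS2, adjusted calls (0) were 3 with no filter, 30 with the GC trend and 84 with the transcript GC trend removed, 115 with the GC trend removed and without siControl replicate 1, and 100 by DESeq2. The cause of these differences was not tested.

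Same-numbered samples deviated together with r between -0.87 and 0.92, so not every pair was over 0.1 and the numbers were not taken to pair the samples. Of the 9 samples, 6 correlated best with their own number, a hint from the data and not from the design. Samples with different numbers also went together: siControl replicate 1 had r = 0.87 with siLATS2 replicate 2, against -0.49 with siLATS2 replicate 1. Both siControl replicate 1 and siLATS2 replicate 2 were on the low side of the GC ratio above. With the replicate block, adjusted calls over all genes were 0, 0 and 0 and unadjusted calls 400, 46 and 256 for siLATS1, siLATS2 and siLATS1 against siLATS2, with 0 of the 60 genes among them.

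Without siControl replicate 1 all 60 genes were below 0 in siLATS1 against siControl. Listed here are 12 named genes that were above 0 with all 9 samples. They were picked for an unadjusted p under 0.05 (limma) in an alternative where they lay below 0. Over the samples left out in turn they ran from -0.35 to 0.40 in RPL10, -0.85 to 1.06 in RPL29, -0.48 to 0.59 in RPL3, -0.84 to 1.47 in RPL35, -1.01 to 1.55 in RPL36, -0.31 to 0.25 in RPL37, -0.38 to 0.43 in RPLP0, -0.95 to 0.84 in RPLP1, -0.80 to 0.81 in RPLP2, -0.62 to 0.65 in RPS19, -0.59 to 0.35 in RPS2 and -0.78 to 1.28 in RPS9. With the GC trend also removed they were -0.27 in RPL10, -0.74 in RPL29, -0.40 in RPL3, -0.69 in RPL35, -0.77 in RPL36, -0.33 in RPL37, -0.32 in RPLP0, -0.87 in RPLP1, -0.68 in RPLP2, -0.43 in RPS19, -0.30 in RPS2 and -0.52 in RPS9. With the transcript GC trend removed in all 9 samples RPS2 was at -0.26. Depth does not limit the 60 genes, whose lowest value rests on 137 reads.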
